A study of Mus musculus with 20 samples.

Results

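The 9 genes described here act in apoptosis: the survival genes Bcl2l1 and Mcl1, the effectors Bax and Bak1, the BH3-only genes Bcl2l11, Bbc3 and Pmaip1, and the initiator caspases Casp8 and Casp9. They were taken by gene symbol to ask whether signs of stress in these embryos came with a change of cell death genes. They are 9 of the 16014 named genes in the authors' table of normalized counts. RNA was sequenced from 20 pools of 10 mouse blastocysts, the embryo stage just before implantation, each grown in KSOM medium after microinjection at the zygote stage. Groups were Str - let7f (8 pools), zygotes given a let-7f-5p mimic at about the level that stress brings about in mature sperm; 2x Str - let7f (5 pools), given the doubled, supraphysiological concentration; and vehicle (7 pools), given the nuclease-free water that carried the mimic. All embryos were wild type (WT) and of the strain F1 C57BL/6Jx129S1/SvlmJ. A mimic is a synthetic duplex that acts like the mature microRNA, and no group used here received an unrelated mimic. Nothing in the labels ties pools to different females or days of injection, and p-values here therefore cover only how far these 20 pools spread.

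Apoptosis has a pair of converging routes. In the mitochondrial route, BH3-only proteins are switched on by stress, bind the survival proteins BCL-XL (from Bcl2l1) and MCL1, and free or activate BAX and BAK, which open the outer mitochondrial membrane; released cytochrome c then assembles APAF1 and caspase-9 into the apoptosome. In the death receptor route, caspase-8 is activated at ligand-bound receptors through FADD and then cuts executioner caspases and BID. Blastocysts normally lose some cells by apoptosis, mainly in the inner cell mass.

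The mimic and the match in Bcl2l1 are shown first, since a let-7 site in a transcript is what a direct target would carry. Capitals mark the seed in the microRNA (bases 2 to 8, RefSeq, GRCm38.p6) and, in the messenger sequence, the letters complementary to it with the A that follows; the messenger line is 3′ untranslated region (UTR) sequence of the longest coding transcript in GENCODE M21 on GRCm38, from the only member in which the 8-base form was found.
let-7f-5p: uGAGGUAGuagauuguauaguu
Bcl2l1: ggggcttccCTACCTCAggcaggaag

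The search looked for CTACCTCA and for its 7-base forms CTACCTC and TACCTCA on the sense strand only, and counted an overlapping match once. Among the 9 genes, 2 held a match: Bcl2l1 had the 8-base form at bases 947 to 954 of a 3′ UTR of 1473 bases, and Pmaip1 had 1 match of 7 bases. No match was found in these windows of Mcl1, Bax, Bak1, Bcl2l11, Bbc3, Casp8 or Casp9. Of the 13108 tested genes with a 3′ UTR, 17.3% held any form and 3.67% held the 8-base form, and among 43 other apoptosis genes 10 held any form. Of those 43, among the ones named below, Birc5 held 2 matches of 7 bases and Bcl2l14 and Fadd held 1 each. The other named ones held none. A match is a description of letters and was not tested as a binding site.

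Libraries held 1.54 to 58.8 M reads in Str - let7f (median 12.4 M), 1.94 to 27.2 M in 2x Str - let7f (median 5.04 M) and 3.30 to 46.6 M in vehicle (median 10.5 M); Str - let7f replicate 9 and 2x Str - let7f replicate 4 were under 2 M. Lin28a, an RNA-binding protein gene and a long-known let-7 target, was lower in every mimic pool than in every vehicle pool (605 ± 180 normalized counts in Str - let7f, n = 8, 723 ± 303 in 2x Str - let7f, n = 5, and 1597 ± 234 in vehicle, n = 7; SD). Its log2 fold change was -1.44 ± 0.19 (SE) in Str - let7f (limma adjusted p = 8.21e-05) and -1.21 ± 0.21 in 2x Str - let7f (adjusted p = 0.00287, and 0.101 in libraries over 5 M reads). Summed levels of 16 primitive endoderm markers ran from 54394 to 64588 in Str - let7f, from 54906 to 62087 in 2x Str - let7f and from 73634 to 92831 in vehicle. By limma adjusted p, 10 of the 16 passed lower in Str - let7f and 8 in 2x Str - let7f, where 0.796% and 0.664% of all genes did. The marker lists were chosen with earlier results of these data known. The part of the primitive endoderm shift in the values of the 9 genes was not tested, and in bulk pools fewer cells of a type and less RNA per cell cannot be told apart. Trophectoderm marker sums overlapped between groups (69362 to 112474 in Str - let7f, 82628 to 123665 in 2x Str - let7f and 71829 to 106905 in vehicle). Those of 7 of 8 epiblast markers did too (5241 to 10381 in Str - let7f, 5166 to 6719 in 2x Str - let7f and 5078 to 7798 in vehicle). By limma, 1 of 9 trophectoderm markers passed higher in each comparison with vehicle, where 1.84% (Str - let7f) and 1.23% (2x Str - let7f) of all genes did. Of the 7 epiblast markers 0 passed. Of markers of cells outside the embryo, 1 of 8 cumulus, 3 of 8 blood and 0 of 7 sperm genes had values here; the cumulus gene stayed at or below 41.3 normalized counts and the blood genes summed to at most 58.0.

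Across the 9 genes, only Bak1 passed the test against vehicle, and it was higher with both concentrations of mimic. The test was limma on log2(normalized count + 1) over 15068 genes, with a Benjamini-Hochberg adjusted p under 0.05 taken as a call; the fold change scale understates changes of low genes. In Str - let7f against vehicle, 1 of 9 was called, where 2.63% of all genes tested were called (1.84% higher and 0.796% lower). In 2x Str - let7f against vehicle, again 1 of 9 was called, against 1.89% of all genes (1.23% higher and 0.664% lower). With 9 genes, a single call is a count on which no share can rest. At an unadjusted p under 0.05 there were 3 of 9 (Bak1, Casp8 and Mcl1, all higher) in Str - let7f, against 14.9% of all genes in either direction. There were 4 of 9 (Bak1, Casp8, Bbc3 and Bcl2l11, all higher) in 2x Str - let7f, against 12.9% in either direction. The median log2 fold change of the 9 was 0.32 in Str - let7f and 0.21 in 2x Str - let7f, beside -0.02 and -0.01 for all genes tested. The 9 genes were chosen with earlier results of these data known, so these counts and medians cannot test a shift of the set. Both comparisons share the 7 vehicle pools, so their likeness is no independent support. No member had groups without overlap: 0 of 9 in Str - let7f against vehicle, where 0.617% of all genes tested lay wholly higher and 0.232% wholly lower, and 0 of 9 in 2x Str - let7f against vehicle, where these shares were 1.36% and 0.889%. All 9 genes passed the filter of at least 10 normalized counts in at least 5 libraries. Casp8 did so mainly through mimic pools: 7 of 8 Str - let7f, 5 of 5 2x Str - let7f and 3 of 7 vehicle pools reached 10.

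**Figure D1:**
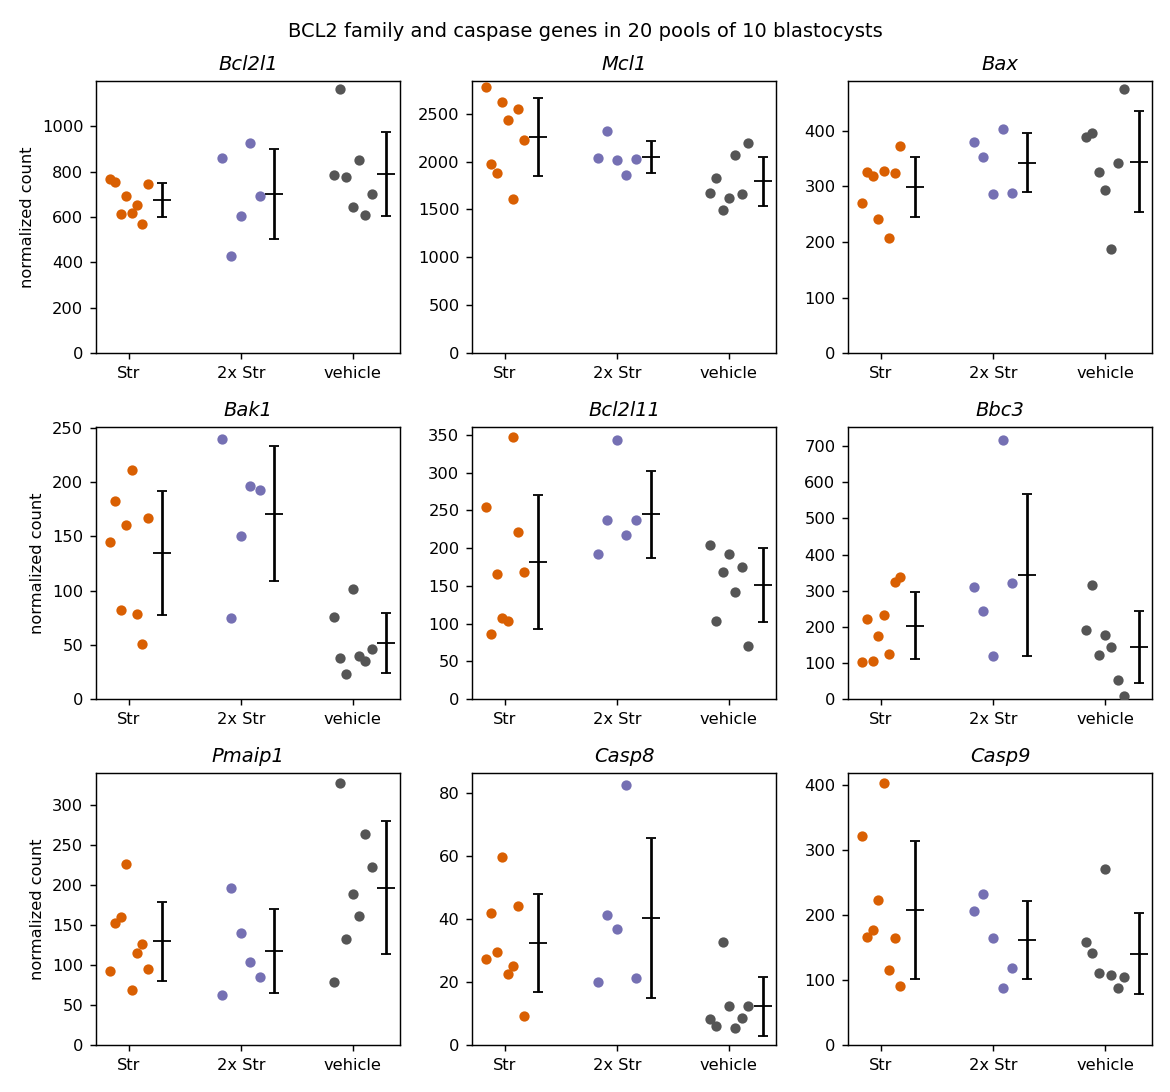
Normalized counts of the 9 genes (y axis, from 0) in each pool of 10 blastocysts, with group means and SD as bars, for Str - let7f (Str), 2x Str - let7f (2x Str) and vehicle. Bak1 shows mimic pools mostly above vehicle pools, with 5 of 8 Str - let7f and 4 of 5 2x Str - let7f pools over the highest vehicle pool, while Bax overlaps throughout.

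Bcl2l1 encodes BCL-XL, which holds BAX and BAK in check. It ran from 570 to 767 normalized counts in Str - let7f (median 673) and was 858, 427, 604, 924 and 694 in the 2x Str - let7f pools, against 609 to 1161 in vehicle (median 774). The groups overlapped; all 8 Str - let7f pools lay below the vehicle median, and 1 lay below every vehicle pool. Means were 677 ± 74.8 in Str - let7f (SD, n = 8), 701 ± 199 in 2x Str - let7f (n = 5) and 789 ± 185 in vehicle (n = 7). The log2 fold change was -0.20 ± 0.16 (SE) in Str - let7f (limma adjusted p = 0.607; 95% interval -0.52 to 0.13). It was -0.19 ± 0.18 in 2x Str - let7f (adjusted p = 0.734; -0.56 to 0.18). Bcl2l1 is the member with the 8-base let-7 match shown above, and both intervals hold 0 as well as decreases down to their lower bounds.

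Mcl1 encodes a short-lived survival protein that the early embryo needs. It ran from 1611 to 2776 normalized counts in Str - let7f (median 2327) and was 2036, 2317, 2015, 1859 and 2029 in 2x Str - let7f, against 1494 to 2198 in vehicle (median 1676). Of the Str - let7f pools, 5 of 8 lay above every vehicle pool, as did 1 of 5 2x Str - let7f pools. Its means were 2259 ± 407 in Str - let7f (SD, n = 8), 2051 ± 165 in 2x Str - let7f (n = 5) and 1792 ± 255 in vehicle (n = 7). The log2 fold change was 0.32 ± 0.12 in Str - let7f, with an unadjusted p of 0.0104 that did not survive adjustment (limma adjusted p = 0.161). It was 0.20 ± 0.13 in 2x Str - let7f (adjusted p = 0.562).

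Bax, the effector that moves from the cytosol to mitochondria, gave no call. It ran from 208 to 372 normalized counts in Str - let7f (median 321) and was 380, 353, 286, 403 and 288 in 2x Str - let7f, against 187 to 475 in vehicle (median 342). No pool of either mimic group lay outside the vehicle range. The log2 fold change was -0.18 ± 0.18 in Str - let7f (limma adjusted p = 0.715; 95% interval -0.55 to 0.20) and 0.03 ± 0.21 in 2x Str - let7f (adjusted p = 0.972; -0.40 to 0.45).

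Bak1, the effector that resides on mitochondria, rose with both concentrations. In Str - let7f it was 50.7 to 211 normalized counts (median 153; 8 to 511 reads), and in 2x Str - let7f it was 240, 74.6, 151, 196 and 192 (29 to 543 reads), against 23.4 to 102 in vehicle (median 40.1; 15 to 476 reads). Every mimic pool lay above the vehicle median, and 5 of 8 Str - let7f and 4 of 5 2x Str - let7f pools lay above every vehicle pool. The lowest Str - let7f value, 50.7, came from replicate 9, the shallowest library, and the highest vehicle value, 102, from replicate 5. Means were 135 ± 57.2 in Str - let7f (SD, n = 8), 171 ± 62.4 in 2x Str - let7f (n = 5) and 51.5 ± 27.4 in vehicle (n = 7), ratios of 2.61 and 3.31 to vehicle. Relative to vehicle, the log2 fold change was 1.38 ± 0.36 in Str - let7f (SE; limma adjusted p = 0.0367; 95% interval 0.64 to 2.11), rank 318 by p among the genes tested. It was 1.76 ± 0.40 in 2x Str - let7f (adjusted p = 0.0225; 0.93 to 2.59), rank 150.

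The size of the Bak1 difference was steadier than its call. With single libraries left out, the log2 fold change stayed between 1.22 and 1.56 in Str - let7f and between 1.60 and 2.03 in 2x Str - let7f, but the call held in only 5 of 15 and 7 of 12 such fits. In Str - let7f the limma adjusted p was 0.0561 without Str - let7f replicate 1, 0.0575 without replicate 2, 0.0690 without replicate 5, 0.0807 without replicate 6 and 0.0721 without replicate 10. It was 0.0745 without vehicle replicate 2, 0.0898 without vehicle replicate 3, 0.0677 without vehicle replicate 6, 0.0640 without vehicle replicate 7 and 0.0565 without vehicle replicate 8. In 2x Str - let7f it was 0.0564 without 2x Str - let7f replicate 1, 0.0547 without replicate 3, 0.0671 without replicate 4, 0.0667 without replicate 5 and 0.0534 without vehicle replicate 3. Fitting only the 2 groups compared gave 0.0536 in Str - let7f, and libraries over 5 M reads gave 0.0658 in 2x Str - let7f.

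**Figure D2:**
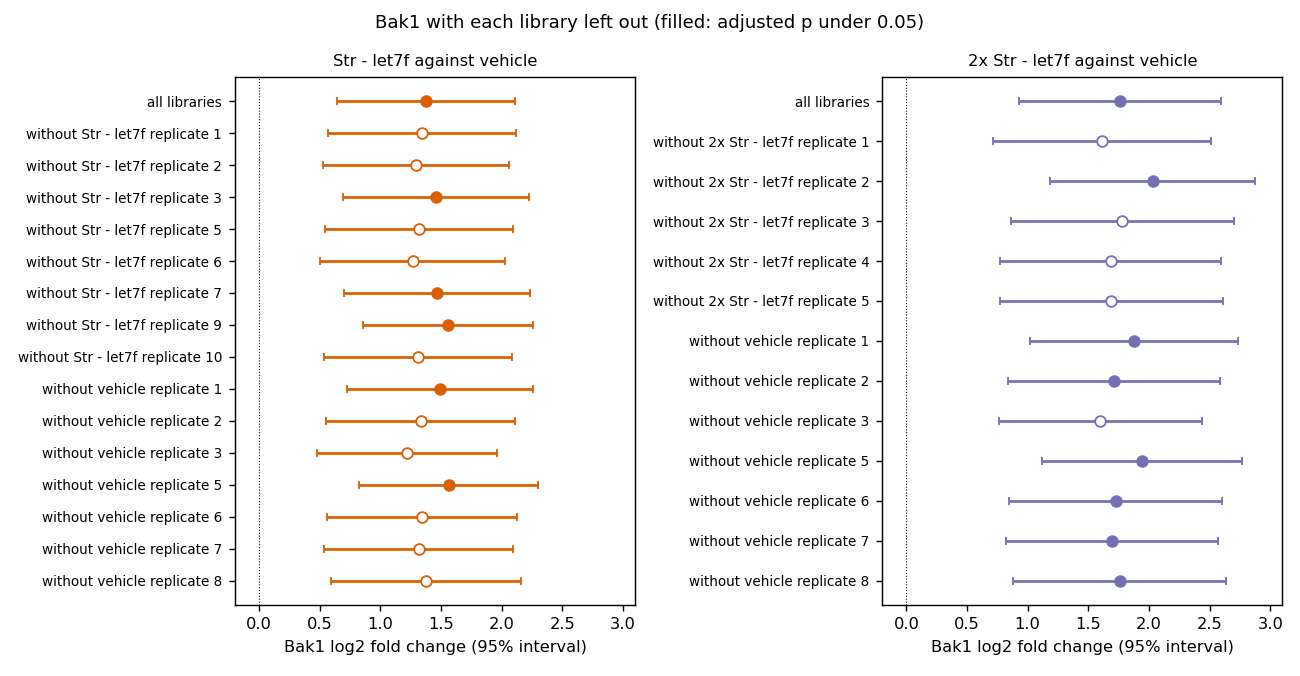
Bak1 log2 fold change against vehicle (x axis, with 95% interval) with all libraries and with each library left out in turn, for Str - let7f (left) and 2x Str - let7f (right); filled points had a limma adjusted p under 0.05. Estimates stay between 1.22 and 1.56 (left) and between 1.60 and 2.03 (right) and no interval reaches 0, while filled points give way to open ones in 10 of 15 and 5 of 12 fits.

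In the GRCm38 annotation Bak1 overlaps Ggnbp1 on the opposite strand, with 614 of the 2407 exonic bases of Bak1 shared. The kit keeps strand, but whether the counting used it is not given in the sources used here, so reads of the pair may not be told apart. Ggnbp1 had 47.2 ± 18.0 normalized counts in Str - let7f (SD, n = 8), 52.9 ± 34.7 in 2x Str - let7f (n = 5) and 47.4 ± 22.6 in vehicle (n = 7). Its log2 fold change was 0.11 ± 0.41 in Str - let7f (limma adjusted p = 0.942) and 0.18 ± 0.47 in 2x Str - let7f (adjusted p = 0.921). Casp9 shares 94 of 5197 exonic bases with Cela2a and Ctrc on the opposite strand, and Bax 192 of 1576 with Gm45808 on its own strand.

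The ratio of Bak1 to the other effector had a higher median in mimic pools, with ranges that overlapped those of vehicle. Bak1 per Bax, in reads of the same library, was 0.157 to 0.666 in Str - let7f (median 0.493), 0.212 to 0.667 in 2x Str - let7f (median 0.526) and 0.072 to 0.347 in vehicle (median 0.104). Bak1 per Bcl2l1 had medians of 0.206 in Str - let7f, 0.250 in 2x Str - let7f and 0.0582 in vehicle. Between 2x Str - let7f and vehicle that second ratio did not overlap, at 0.175 to 0.280 in 2x Str - let7f pools and 0.0302 to 0.158 in vehicle pools; it ran from 0.0889 to 0.342 in Str - let7f. Bak1 per Mcl1 did overlap, at 0.0199 to 0.0924 in Str - let7f, 0.0322 to 0.118 in 2x Str - let7f and 0.0157 to 0.0627 in vehicle. These ratios rest on the Bak1 values above and were not tested separately. No other ratio printed here separated 2 groups, and how often ratios of other gene pairs do so was not computed. Bax per Bcl2l1 had medians of 0.465 in Str - let7f, 0.443 in 2x Str - let7f and 0.456 in vehicle. Pmaip1 per Mcl1 had lower medians in mimic pools, 0.0606 in Str - let7f and 0.0556 in 2x Str - let7f, against 0.101 in vehicle. Mcl1 per Bcl2l1 had higher ones, 3.35 in Str - let7f and 2.92 in 2x Str - let7f, against 2.43 in vehicle. The groups overlapped in each of these ratios, which were not tested either.

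None of the 3 BH3-only genes passed the test. Bcl2l11 encodes BIM, which binds all survival members. It ran from 86.7 to 347 normalized counts in Str - let7f (median 167) and was 192, 237, 343, 217 and 237 in 2x Str - let7f, against 70.9 to 204 in vehicle (median 169). The 2x Str - let7f pools all lay above the vehicle median and 4 of 5 above every vehicle pool, whereas Str - let7f pools spread across the vehicle range and beyond it. On the log2 scale the change was 0.20 ± 0.29 in Str - let7f (limma adjusted p = 0.818) and 0.75 ± 0.33 in 2x Str - let7f (unadjusted p = 0.0320, adjusted p = 0.324). Over 13 alternatives the Str - let7f estimate of Bcl2l11 ran from -0.06 to 0.24, so its sign is not settled.

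Bbc3 encodes PUMA, a p53-induced BH3-only protein, and its values spread widely. It ran from 104 to 339 normalized counts in Str - let7f (median 198) and was 310, 245, 121, 718 and 322 in 2x Str - let7f, against 9.25 to 316 in vehicle (median 144). The groups overlapped, with 2 of 8 Str - let7f and 2 of 5 2x Str - let7f pools above every vehicle pool. The highest value, 718, is 139 reads in 2x Str - let7f replicate 4, a library under 2 M reads. The lowest, 9.25, rests on only 3 reads in vehicle replicate 8. The estimate was a log2 fold change of 0.88 ± 0.53 in Str - let7f (limma adjusted p = 0.469) and 1.54 ± 0.60 in 2x Str - let7f (unadjusted p = 0.0181, adjusted p = 0.254). Without vehicle replicate 8 these were 0.33 ± 0.39 (adjusted p = 0.768) in Str - let7f and 0.99 in 2x Str - let7f, and over 13 alternatives the estimate ran from 0.05 to 0.89 in Str - let7f and from 0.52 to 1.55 in 2x Str - let7f.

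Pmaip1, which encodes NOXA, an MCL1-binding BH3-only protein, had lower means in both mimic groups. It ran from 68.0 to 225 normalized counts in Str - let7f (median 121) and was 62.0, 196, 140, 103 and 85.0 in 2x Str - let7f, against 78.8 to 327 in vehicle (median 189). All groups overlapped, and 1 of 8 Str - let7f and 1 of 5 2x Str - let7f pools lay below every vehicle pool. Relative to vehicle, the log2 fold change was -0.56 ± 0.31 in Str - let7f (limma adjusted p = 0.418) and -0.73 ± 0.35 in 2x Str - let7f (unadjusted p = 0.0508, adjusted p = 0.391). It thus differed in sign of estimate from Bbc3, the other p53-induced BH3-only gene, but neither passed.

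Casp8, the initiator caspase of the death receptor route, had estimates as large as those of Bak1 on far fewer reads. It ran from 9.06 to 59.7 normalized counts in Str - let7f (median 28.5; 7 to 185 reads) and was 20.0, 41.2, 37.0, 82.6 and 21.3 in 2x Str - let7f (10 to 100 reads), against 5.35 to 32.8 in vehicle (median 8.65; 2 to 139 reads). Every mimic pool lay above the vehicle median, and 3 of 8 Str - let7f and 3 of 5 2x Str - let7f pools lay above every vehicle pool. The vehicle pool at 32.8, replicate 3, stood well above the other 6. Means were 32.4 ± 15.6 in Str - let7f (SD, n = 8), 40.4 ± 25.4 in 2x Str - let7f (n = 5) and 12.3 ± 9.48 in vehicle (n = 7). On the log2 scale the change was 1.40 ± 0.46 in Str - let7f (unadjusted p = 0.00591, limma adjusted p = 0.121; 95% interval 0.44 to 2.35). It was 1.68 ± 0.52 in 2x Str - let7f (unadjusted p = 0.0038, adjusted p = 0.111; 0.60 to 2.76). No adjusted p under 0.05 came from any alternative or left-out library; the lowest were 0.0614 in Str - let7f and 0.0612 in 2x Str - let7f. In vehicle replicate 6 the count was 2 reads, under the limit of 3 that a count of 0 allows.

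Casp9, the initiator caspase of the apoptosome, had a higher mean in Str - let7f pools, by less than the test could call. It ran from 90.0 to 403 normalized counts in Str - let7f (median 171) and was 206, 232, 164, 87.8 and 118 in 2x Str - let7f, against 88.3 to 270 in vehicle (median 110). The groups overlapped, with 2 of 8 Str - let7f pools above every vehicle pool and 1 of 5 2x Str - let7f pools below every one. The estimate was a log2 fold change of 0.51 ± 0.31 in Str - let7f (limma adjusted p = 0.477) and 0.21 ± 0.35 in 2x Str - let7f (adjusted p = 0.877).

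**Figure D3:**
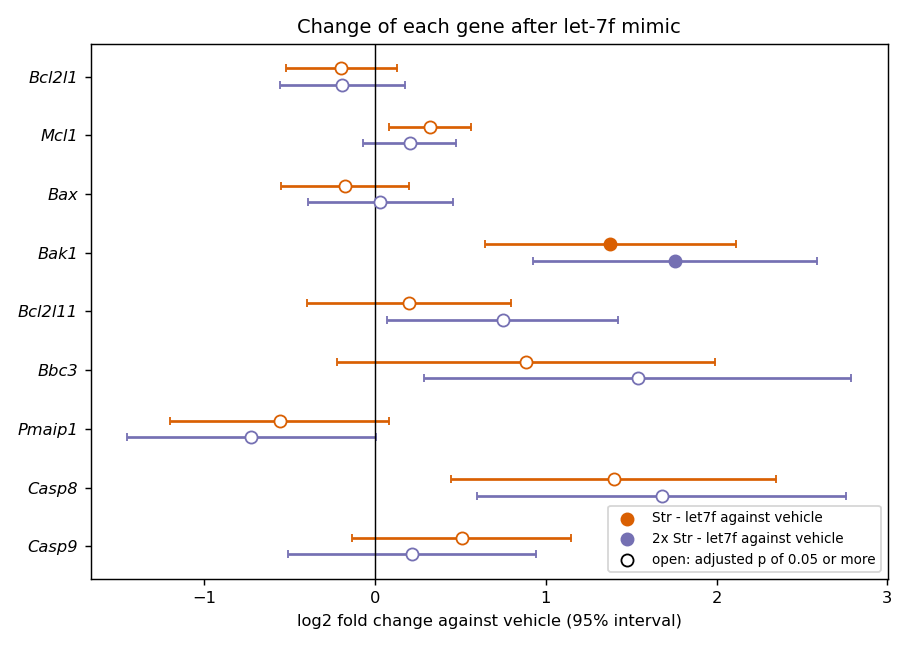
Log2 fold change of each gene against vehicle (x axis) with its 95% interval, Str - let7f above 2x Str - let7f for each gene; filled points had a limma adjusted p under 0.05. Bak1 is filled at 1.38 and 1.76, and Casp8 sits near it at 1.40 and 1.68 with open points and wider intervals.

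Between the 2 concentrations of mimic no member passed the test. In 2x Str - let7f against Str - let7f limma called 0 of the 9 genes and 0 of all 15068 (0%), with 608 at an unadjusted p under 0.05 (4.04%) and 0 of these among the 9; edgeR called 1 gene and DESeq2 called 11 of all genes, none of them a member. Bak1 differed by 0.38 ± 0.39 on the log2 scale (95% interval -0.43 to 1.19) and Casp8 by 0.28 ± 0.51 (-0.77 to 1.33). Bcl2l11 had an estimate of 0.55 ± 0.32 (-0.11 to 1.21) and Bbc3 one of 0.66 ± 0.59 (-0.56 to 1.87). No member's groups were free of overlap here either, where 0.0531% of all genes lay wholly higher and 0.0265% wholly lower in 2x Str - let7f. These intervals do not show that the concentrations act alike.

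Levels among the 9 genes were compared per kb of the longest coding transcript in GENCODE M21, as normalized count per kb. In vehicle pools the order was Mcl1 (524 ± 74.6, SD, n = 7), Bax (396 ± 105), Bcl2l1 (307 ± 71.9), Bbc3 (79.7 ± 55.2), Pmaip1 (71.9 ± 30.5), Casp9 (35.9 ± 16.0), Bcl2l11 (30.0 ± 9.66), Bak1 (21.6 ± 11.5) and Casp8 (4.74 ± 3.67). Ranges over pools overlapped between every pair of neighbours except Bcl2l1 and Bbc3, where the lowest Bcl2l1 pool, 237, lay above the highest Bbc3 pool, 174. In vehicle the survival genes and Bax thus formed an upper tier and the BH3-only genes, both caspases and Bak1 a lower one. That gap also stood in Str - let7f, where Bcl2l1 ran from 222 per kb and Bbc3 up to 187. It did not stand in 2x Str - let7f. There Bbc3 ran from 66.5 to 396 per kb and overlapped Bcl2l1 (166 to 360) and Bax (330 to 465). Bak1 had the eighth level of the 9 genes in vehicle and the fifth in both mimic groups. In the mimic groups its range overlapped those of Bbc3, ranked just above it, and of Casp9, Pmaip1 and Bcl2l11. Bak1 had 56.4 ± 23.9 per kb in Str - let7f (n = 8) and 71.5 ± 26.1 in 2x Str - let7f (n = 5). It still lay under Bax in every group, since Bax had 344 ± 62.1 per kb in Str - let7f and 395 ± 61.1 in 2x Str - let7f.

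Among other genes of the apoptosis lists, which leave out Perp (given below with the p53 targets), 1 call was made. Of 56 genes in 9 lists, 43 were tested and the others were not analysed here. In Str - let7f 1 of 43 passed higher and 0 lower, with a median log2 fold change of 0.09, where 1.84% of all genes tested passed higher and 0.796% lower. In 2x Str - let7f 0 passed in either direction, with a median of 0.10, where 1.23% of all genes passed higher and 0.664% lower. A single call in 43 is near the share over all genes and says nothing of the lists. The gene that passed was Apaf1, the scaffold of the apoptosome. Apaf1 had 937 ± 222 normalized counts in Str - let7f (SD, n = 8), 821 ± 216 in 2x Str - let7f (n = 5) and 550 ± 176 in vehicle (n = 7), and 7 of 8 Str - let7f pools lay above the highest vehicle pool, at 795. Its log2 fold change was 0.80 ± 0.21 in Str - let7f (limma adjusted p = 0.0388) and 0.60 ± 0.24 in 2x Str - let7f (adjusted p = 0.257). The Apaf1 call held in 5 of 15 fits with a library left out. The adjusted p was 0.0656, 0.0508, 0.0659, 0.0528, 0.0533, 0.0810 and 0.0684 without Str - let7f replicates 1, 2, 3, 5, 7, 9 and 10, and 0.0971, 0.0853 and 0.0923 without vehicle replicates 2, 3 and 6. In libraries over 5 M reads it was 0.0735.

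Outside Apaf1, the smallest p of each list in Str - let7f against vehicle did not pass. Bnip3l, a mitophagy receptor related to the BH3-only genes, had a log2 fold change of 0.84 ± 0.28 in Str - let7f (limma adjusted p = 0.123), and Bcl2l14, a BCL2-like gene, 0.86 ± 0.29 (adjusted p = 0.128). Birc5, which encodes survivin and also serves cell division, was 870 ± 69.6 normalized counts in Str - let7f (n = 8), 833 ± 101 in 2x Str - let7f (n = 5) and 1047 ± 91.0 in vehicle (n = 7). Of its Str - let7f pools, 7 of 8 lay below every vehicle pool, at a log2 fold change of -0.27 ± 0.10 (adjusted p = 0.171; in 2x Str - let7f -0.33 ± 0.11, adjusted p = 0.144). Tnfrsf21, which encodes death receptor 6, had -1.47 ± 0.50 in Str - let7f (adjusted p = 0.136) and -1.68 ± 0.57 in 2x Str - let7f (adjusted p = 0.157). Casp6 had 0.37 ± 0.19 (adjusted p = 0.374), Acin1 -0.30 ± 0.12 (adjusted p = 0.212), Bok -0.34 ± 0.31 (adjusted p = 0.674) and Bcl2 -0.30 ± 0.53 (adjusted p = 0.861), each in Str - let7f. In 2x Str - let7f against Str - let7f the smallest p of the 43 genes were those of Aifm1 and Fadd, and neither passed. Aifm1 had 0.72 ± 0.17 (limma adjusted p = 0.896) and Fadd -1.18 ± 0.32 (adjusted p = 0.9997). All 5 2x Str - let7f pools had less Fadd than every Str - let7f pool, where 0.0265% of all genes tested lay wholly lower.

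**Figure D4:**
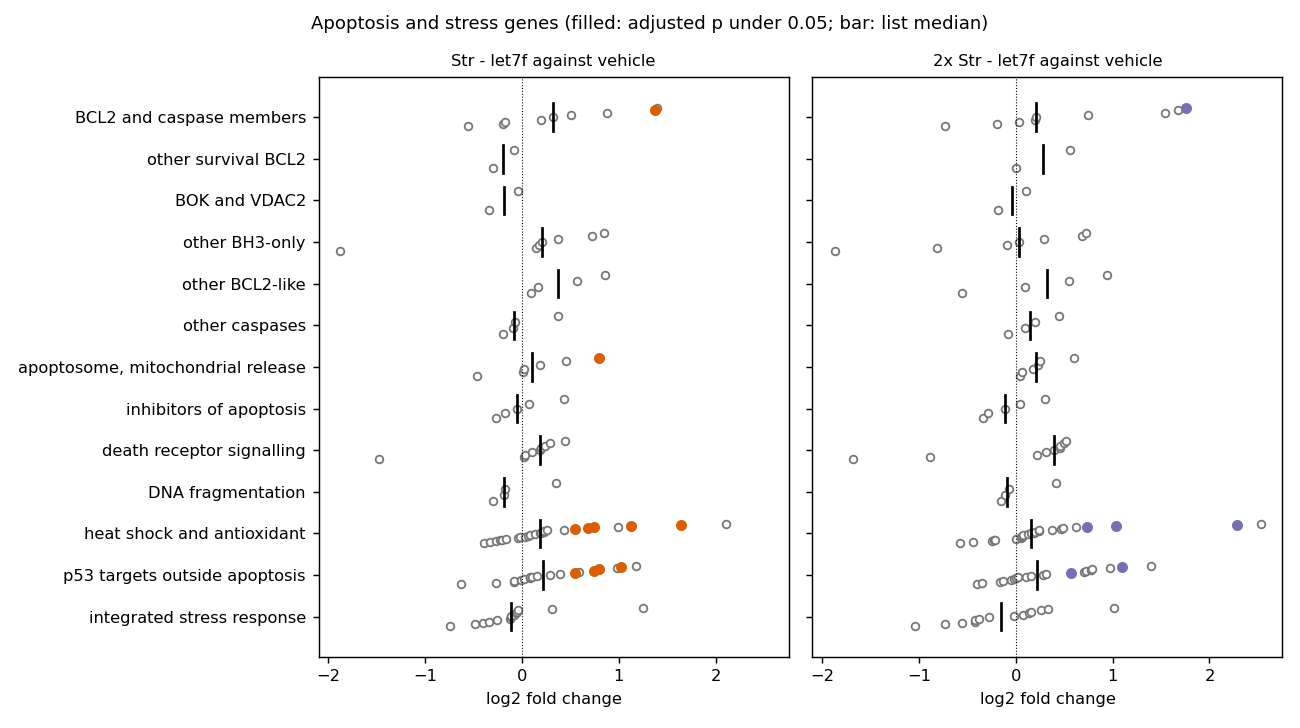
Log2 fold change against vehicle (x axis) of each tested gene of the apoptosis and stress lists (rows), for Str - let7f (left) and 2x Str - let7f (right); bars are list medians, and filled points had a limma adjusted p under 0.05. Among apoptosis lists only Bak1 (both panels) and Apaf1 (left) are filled, while 5 heat shock or antioxidant genes and 4 p53 targets are filled on the left.

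Stress genes were set beside the 9. Of 25 heat shock and antioxidant genes tested, 5 rose in Str - let7f (median log2 fold change 0.19) and 3 in 2x Str - let7f (median 0.16). Of 20 p53 targets outside the apoptosis lists, 4 rose in Str - let7f (median 0.22) and 2 in 2x Str - let7f (median 0.22). None of either list fell. Over all genes tested, 1.84% passed higher in Str - let7f and 1.23% in 2x Str - let7f. The lists were chosen with earlier results of these data known. These counts therefore cannot test whether stress genes rose more often than others. Of 14 integrated stress response genes, 0 passed in either comparison (medians -0.11 and -0.15).

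Ccng1, a p53 target that encodes cyclin G1, had 2426 ± 389 normalized counts in Str - let7f (n = 8), 2538 ± 281 in 2x Str - let7f (n = 5) and 1200 ± 233 in vehicle (n = 7), with no overlap (limma adjusted p = 3.1e-05 and 8.45e-05). Perp, a p53 target in cell junctions, is also named for a role in apoptosis. Here it was counted with the p53 list and not with the apoptosis lists. Perp rose by 0.55 ± 0.11 on the log2 scale in Str - let7f (limma adjusted p = 0.00773, and 0.0636 in libraries over 5 M reads). Perp rose by 0.57 ± 0.13 in 2x Str - let7f (adjusted p = 0.0206), a call lost without 2x Str - let7f replicates 3 (0.0502), 4 (0.0748) and 5 (0.0512) and in libraries over 5 M reads (0.252). Cdkn1a, the p53-induced cell cycle inhibitor p21, rose by 0.74 ± 0.19 in Str - let7f (adjusted p = 0.0324); that call was lost without Str - let7f replicates 2, 5, 6 and 9 or vehicle replicates 1, 3, 6, 7 and 8 (adjusted p from 0.0507 to 0.0777) and in libraries over 5 M reads (0.219). Cdkn1a had 0.77 ± 0.21 in 2x Str - let7f (adjusted p = 0.0613). Txnrd1, an NRF2 target of the thioredoxin system, rose by 0.74 ± 0.12 in Str - let7f (adjusted p = 0.000848) and by 0.74 ± 0.14 in 2x Str - let7f (adjusted p = 0.00393; 0.112 in libraries over 5 M reads). Gclc, which starts glutathione synthesis, rose by 1.13 ± 0.24 in Str - let7f (limma adjusted p = 0.00949; 0.0732 in libraries over 5 M reads) and by 1.04 ± 0.27 in 2x Str - let7f (adjusted p = 0.0477). With single libraries left out, the second call held only without vehicle replicate 1 or 5 and was lost without any other library, at up to 0.118, and in libraries over 5 M reads (0.354). Hspb1, a small heat shock protein gene, rose by 0.68 ± 0.16 in Str - let7f (adjusted p = 0.0215), a call lost without Str - let7f replicate 6 (0.0512), vehicle replicate 6 (0.0546) or vehicle replicate 8 (0.0513) and in libraries over 5 M reads (0.127). Hspb1 had 0.62 ± 0.18 in 2x Str - let7f (adjusted p = 0.0899). Of the integrated stress response genes, Mthfd2 had -0.74 ± 0.34 (adjusted p = 0.293), Atf3 1.25 ± 0.76 (adjusted p = 0.471) and Ppp1r15a 0.31 ± 0.20 (adjusted p = 0.505) in Str - let7f.

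Whether pools with more stress-gene RNA also had more of the 9 transcripts was asked within Str - let7f (n = 8) and within vehicle (n = 7), each alone, over 36 relations between a member and the mean log2 level of the heat shock and antioxidant or the p53 list. None passed adjustment: the lowest adjusted p was 0.314 for Pearson's r and 0.518 for Spearman's rho (exact permutation tests, two-sided). Unadjusted, 4 had a Pearson p under 0.05; in libraries over 5 M reads, where 18 relations within Str - let7f could be computed, 0 did. Casp9 went with the heat shock and antioxidant level in vehicle (r = 0.87, exact p = 0.00873; rho = 0.79, exact p = 0.0480; r = 0.97 without the 2 farthest pools). Bcl2l1 went against it in Str - let7f (r = -0.77, exact p = 0.0306; rho = -0.71, exact p = 0.0576; r = -0.67 without the 2 farthest; in libraries over 5 M reads r = -0.70, exact p = 0.0806, and -0.36 without the 2 farthest). Pmaip1 went with the p53 target level in Str - let7f (r = 0.73, exact p = 0.0407, and rho = 0.76, exact p = 0.0368, with r = 0.76 without the 2 farthest). In libraries over 5 M reads Pmaip1 had r = 0.75 (exact p = 0.0518), and 0.89 without the 2 farthest. Bax went with the p53 target level in vehicle (r = 0.84, exact p = 0.0323, and rho = 0.68, exact p = 0.110), a relation that rests on the 2 farthest pools (r = 0.34 without them). For Casp8 and the p53 target level in Str - let7f r was 0.57 (exact p = 0.146) and rho 0.74 (exact p = 0.0458). In libraries over 5 M reads that rho was 0.82 (exact p = 0.0341, adjusted p = 0.596). For Bak1 and the p53 target level r was 0.27 in Str - let7f (exact p = 0.538) and 0.41 in vehicle (exact p = 0.351), and for Bak1 and the heat shock and antioxidant level it was -0.16 (exact p = 0.698) and 0.65 (exact p = 0.112).

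Once group means were taken out, the 9 genes varied largely apart across the 20 pools. Pearson's r between members ran from -0.44 (Bax with Bcl2l11) to 0.43 (Bcl2l1 with Bbc3), a description over pools that share library depth and size factor. For members with a vehicle mean of at least 100, the 3 nearest genes by the same measure had r from 0.74 to 0.81. Each was picked for the highest r among all genes tested. Such picking by itself favours high values, and no r was tested, so the names do not show a tie to the member. The nearest genes were Sdha, Rabgef1 and Ccdc171 for Bcl2l1 (highest r = 0.81), Sf1, Adcy9 and Thap11 for Mcl1 (0.77) and Inppl1, Triobp and Cbx7 for Bax (0.80). For the BH3-only genes they were Snx14, Mapk10 and 0610040J01Rik for Bcl2l11 (0.79), Tlcd3a, Fancb and Tsc22d1 for Bbc3 (0.79) and Itgb7, Ptpa and Gne for Pmaip1 (0.78). Mapk10 averaged only 8.19 normalized counts over the 20 pools. For Casp9 they were Mob1a, Atp6v0b and Decr2 (0.81).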

How the data were processed

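The authors' deposited table gives 1 normalized count per gene and library, a signal that is never negative. Per the submitters' processing notes, the tools were kallisto 0.50.1, Trimmomatic 0.39, FastQC 0.12.1, MultiQC 1.28 and DESeq2 1.48.2, with the build GRCm39; the annotation, the summing to genes and the use of strand are not given in the sources used here. Reads shared by near-identical transcripts are split by kallisto, which leaves values of close gene copies uncertain. In every library 100% of values were whole multiples of 1 read within a tolerance of 0.01 of a read, so whole reads and depths were recovered. The 1 unnamed entry, 0.0286% to 0.0618% of reads, was left out. Printed 95% intervals come from the limma fit and reflect the spread between pools, while the floor of 3 reads covers counting error only.

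The 9 genes and the lists were chosen with earlier results of these data known. A gene was tested if 5 or more libraries reached 10 normalized counts, which left 15068 genes, as log2(value + 1), a pseudocount of 1. The two-sided test used limma 3.58.1 (R 4.3.3), with group means from all 20 libraries together, a variance prior that follows the level, and Benjamini-Hochberg adjustment over all genes tested. The step was tested on simulated data. Alternatives were other pseudocounts, filters and scalings, array weights, fewer groups or libraries, a replicate block, and the recovered reads tested by edgeR 4.0.16 or by DESeq2 1.42.0; leaving out the 2 libraries under 2 M reads was chosen after seeing the depths. Within a group, 59 pairs of libraries differed by at least 16.8 chi-square per degree of freedom, so none was counted as a repeat.

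Named genes were the 9, every gene of the other apoptosis lists that passed or, where none did, the 1 with the smallest p in Str - let7f against vehicle, up to 3 genes per stress list by the same p, the 3 nearest genes of each member with a vehicle mean of at least 100, and Lin28a. Ggnbp1, Aifm1 and Fadd were named outside this rule. GENCODE M21 on GRCm38, another build than the authors', served only for transcript length, 3′ UTR sequence and overlaps; 13203 of the genes tested matched a transcript and 1865 did not.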

Additional observations from a re-analysis of the deposited data

Results flagged for a closer look

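In 27 sets of values (9 genes in 3 groups), 2 held a pool set far apart from the others of its group by Dixon's ratio; chance gives about 1 in 20. Casp8 was 32.8 normalized counts in vehicle replicate 3, with a gap of 0.744 of the group's range against a critical value of 0.568. Casp9 was 270 in vehicle replicate 5, with a gap of 0.614.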

How the results depend on the processing

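Of 708 refitted values of single members, 690 stayed on the same side of the threshold and 18, all of Bak1, lost the call; 26 of the 690, all uncalled, differed in sign. In Str - let7f against vehicle the count of members called was 0 when only the groups compared were fitted, and 0 to 1 with single libraries left out. Genes called there were 617 with array weights, 767 by DESeq2, 201 in libraries over 5 M reads and 282 to 459 with single libraries left out, against 397. In 2x Str - let7f against vehicle members called were 0 in libraries over 5 M reads and 0 to 1 with single libraries left out. Genes called were 647 with array weights, 621 by DESeq2, 68 in libraries over 5 M reads, 185 without the 2 libraries under 2 M reads and 144 to 273 with single libraries left out, against 285. Between mimic groups edgeR called 1 gene, DESeq2 11 and left-out fits 0 to 1 (members 0 to 0). Why calls moved was not tested, except that the smaller sets hold fewer libraries. Across its 13 alternatives Bak1 kept a log2 fold change of 1.22 to 1.56 in Str - let7f and 1.57 to 1.98 in 2x Str - let7f. Casp8 was not tested under a minimum of 50.

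Deviations of same-numbered pools had a median r of 0.0506 over 14 pairs (from -0.00657 to 0.0923), against -0.00767 for pools with other numbers. Since 0 pairs passed 0.1 and the labels give the numbers no meaning, they were not used to pair pools. That cut was a choice and cannot tell whether the numbers mark a shared batch, as the same-number median was the higher. With the replicate block 1 member was called in Str - let7f and 0 in 2x Str - let7f (Bak1 1.60 ± 0.39, limma adjusted p = 0.0577), and 293 and 277 genes in all.

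Depth limits Casp8 most: it rests on 2 to 185 reads per library.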
